A study of Mus musculus with 14 samples.

Results

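The genes described here are 10 components of Toll-like receptor (TLR) signalling that act directly below the receptors, chosen by name from the 55414 genes of the count table. They were the adapters Myd88, Tirap, Ticam1 and Ticam2, the IL-1 receptor-associated kinases Irak1, Irak2, Irak3 and Irak4, the ubiquitin ligase Traf6 and the inhibitory protein Tollip. All 10 were found in the table, and all 10 passed the filter on low counts that left 12851 genes for testing. RNA from macrophages grown out of mouse bone marrow (pBMDMs) was read as 3′ tags in 14 libraries, after 24 h of exposure to filtered supernatants of other cells.

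The macrophages came from wildtype C57BL/6N mice and were grown from bone marrow and plated with the growth factor M-CSF. The paper does not say whether M-CSF was also present in each group during the exposure. The supernatants came from Pfa1 cells, a mouse embryonic fibroblast (MEF) line in which 4-hydroxytamoxifen (4OHT) deletes GPX4, the enzyme that detoxifies lipid peroxides and whose loss leads to ferroptosis. Donor cells were left untreated (ctrl, n = 3), treated with ferrostatin-1, an inhibitor of lipid peroxidation (Fer1, n = 3), treated with 4OHT together with ferrostatin-1 (4OHT+Fer1, n = 3), or treated with 4OHT alone (4OHT, n = 3). Fresh medium with no donor cells served as a further control (medium, n = 2). Its sample titles, medium ctrl, do not give the base medium. The paper cultured primary macrophages in the medium RPMI and Pfa1 cells in the medium DMEM. If the base medium of this group differed from that of the supernatants, its effect cannot be told apart from that of the donor cells. The first 3 kinds of supernatant are called live supernatants below, and the 4OHT kind the ferroptotic supernatant. The model is 1 donor line, so differences between donor cultures other than ferroptosis cannot be told apart from it. The added 4OHT and ferrostatin-1 could also pass to the macrophages with the supernatant.

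TLRs recognise microbial products and molecules released from damaged cells, and they pass the signal on through adapters that share their TIR domain. MyD88, brought to some receptors by TIRAP, gathers IRAK4 and then IRAK1 and IRAK2 into a complex called the Myddosome, and TRAF6 carries the signal to the kinases that activate NF-kB and MAP kinases. TRIF, the product of Ticam1, is brought to TLR4 by TRAM, the product of Ticam2, and leads to type I interferon. IRAK3 (IRAK-M) and TOLLIP hold this pathway back in macrophages, and Irak2 and Irak3 are themselves among the genes that TLR signals can induce.

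Libraries held between 7823051 and 11052352 counts, so that 3 counts, the limit that a count of 0 allows, corresponded to 0.272 to 0.381 CPM, a gene's counts relative to the scaled library size. Member counts per library ran from 38 for Tollip to 1483 for Myd88. The scaling used TMM factors, and since 1 tag is read per transcript, CPM can be set side by side between genes without a length correction. The libraries carried macrophage RNA. Lyz2, the lysozyme gene of myeloid cells, ranged from 13955 to 36161 CPM, and the 7 macrophage markers summed to between 18634 and 43653 CPM. The 8 fibroblast markers summed to 15.1 to 116 CPM, mostly from the collagen genes Col1a1 (5.07 to 41.5 CPM), Col1a2 (7.75 to 67.3 CPM) and Col3a1 (0.318 to 6.71 CPM), while Lum and Thy1 lay at or near 0. Summed neutrophil markers were 34.3 to 47.1 CPM in medium and 2.87 to 25.3 CPM in the supernatant libraries, with Ly6g and Elane at 0 counts in every library, which allows up to 0.381 CPM.

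In order of their mean level over the 5 groups, the members ran from Myd88 at 122 CPM and Irak1 at 106 CPM, through Irak4 at 71.9, Irak2 at 53.3, Tirap at 31.6, Ticam2 at 27.7 and Irak3 at 27.5 CPM, down to Ticam1 at 18.02, Tollip at 16.9 and Traf6 at 14.9 CPM. Irak1 lay above Irak4 and Irak3 above Ticam1 in 14 of 14 libraries. Myd88 lay above Irak1 in 9 of 14, Ticam2 above Irak3 in 8 of 14 and Tollip above Traf6 in 9 of 14, so that these neighbours overlapped. Irak1 was the steadiest gene, with a 1.29-fold range over the 14 libraries, and Tollip the most variable, with an 8.38-fold range. Irak2 came next with a 4.49-fold range.

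**Figure D1:**
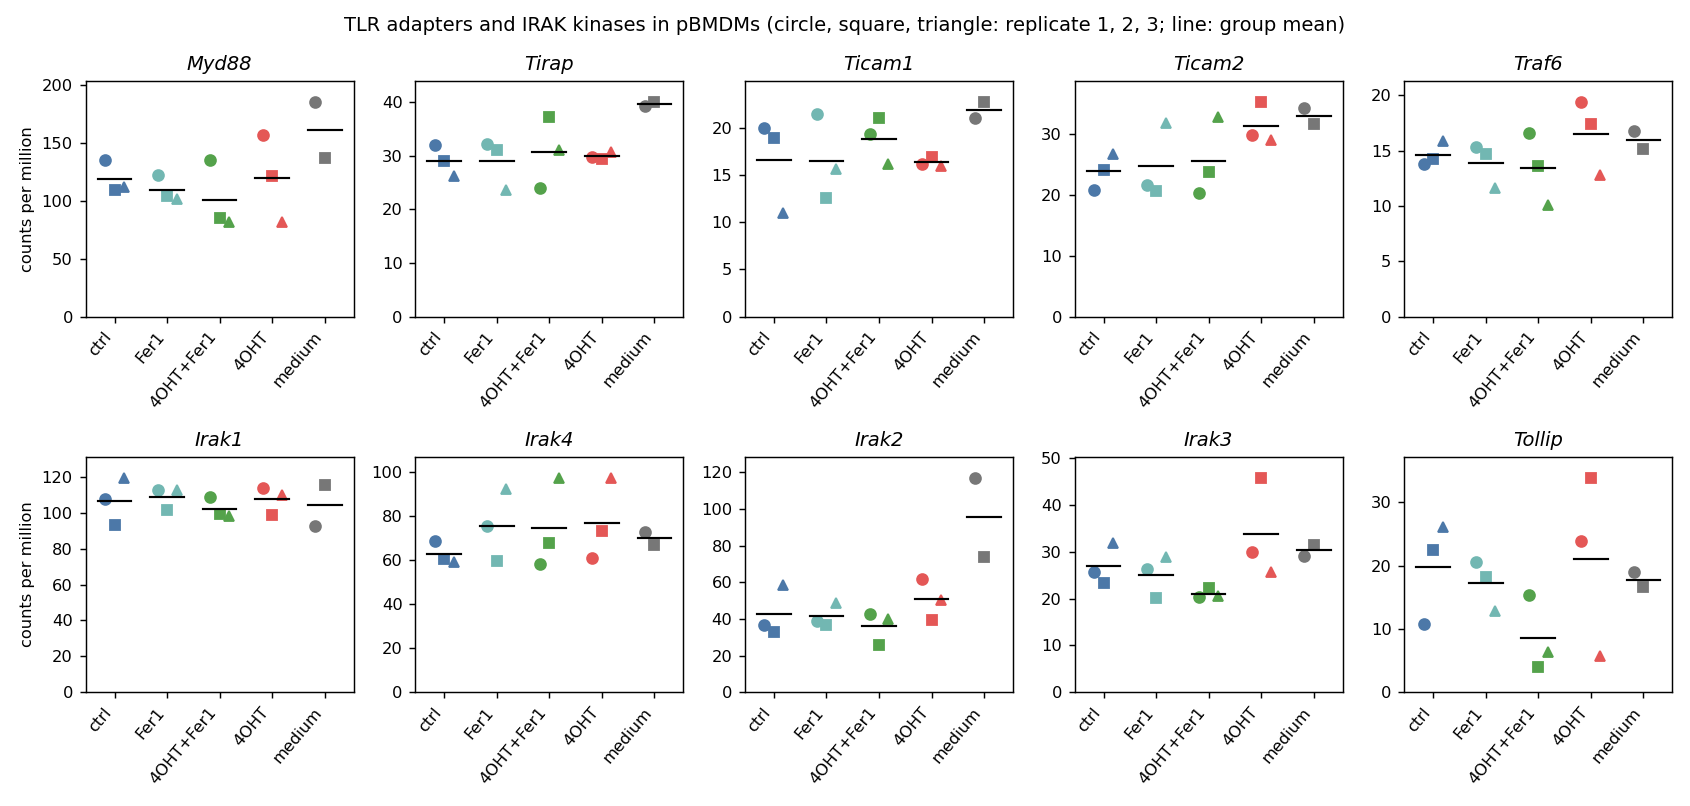
CPM of the 10 genes in each library, from a y axis that starts at 0, with 1 panel per gene and 1 column per group (n = 3, or n = 2 for medium). Points are libraries, their shapes give the replicate number and black lines are group means. Irak2 in medium, at 74.0 and 117 CPM, lies above all 12 supernatant libraries, while the points of most other genes overlap between groups.

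Over all groups, Irak2 was the member whose level differed. A test of any difference among the 5 groups (edgeR's quasi-likelihood F-test, Benjamini-Hochberg adjusted) passed for 1 of the 10 members, Irak2, at an adjusted p of 0.00352, and for 7.1% of all tested genes. For the other 9 members the adjusted p in that test ran from 0.271 for Ticam2 to 0.991 for Irak1.

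IRAK2 is the kinase that keeps Myddosome signalling going after IRAK1 is consumed. Irak2 was at 117 and 74.0 CPM in the macrophages given fresh medium. It was at 36.8, 33.1 and 58.5 CPM after ctrl supernatant and at 38.9, 36.6 and 49.0 CPM after Fer1 supernatant. After 4OHT+Fer1 supernatant it was at 42.9, 26.0 and 40.0 CPM, and after 4OHT supernatant at 62.0, 39.3 and 50.6 CPM. Both medium libraries were above every supernatant library, the replicate 1 library of medium being the highest of all, and the 4 kinds of supernatant overlapped one another.

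The 3 kinds of live supernatant against medium gave a log2 fold change of -1.35 for Irak2 (SE 0.17, 95% interval -1.72 to -0.99), a level 0.391 times that in medium. This passed edgeR's quasi-likelihood test at a Benjamini-Hochberg adjusted p of 2.35e-04. Irak2 was thus called lower among the 14.7% of genes called in either direction in this comparison. The ctrl supernatant alone gave -1.27 (SE 0.21, edgeR adjusted p = 0.00198), with 10.9% of genes called. The ferroptotic 4OHT supernatant gave -1.01 (SE 0.20, edgeR adjusted p = 0.0158), with 4.26% of genes called. These 3 comparisons share the medium libraries.

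The difference was present within each replicate number that has a medium library. In replicate 1, Irak2 in medium was 3.17 times its level in ctrl, 3.00 times that in Fer1, 2.72 times that in 4OHT+Fer1 and 1.88 times that in 4OHT. In replicate 2 the same ratios were 2.23, 2.02, 2.85 and 1.88. Since only 2 medium libraries exist, the calls rest on both. Without replicate 1 the edgeR adjusted p of ctrl against medium was 0.112 and that of 4OHT against medium 0.310, without replicate 2 they were 0.133 and 0.417, and that of live against medium was 0.0351 and 0.0488.

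The medium libraries also held more of the calprotectin genes S100a8 (mean 18.4 CPM, against 4.76 to 8.54 CPM in the supernatant groups) and S100a9 (20.7 CPM, against 4.34 to 7.46 CPM), which mark neutrophils and monocytes. Of the 6 neutrophil markers, 3 stayed at or under 3 counts in every library. Csf1r, the M-CSF receptor, was at a mean of 4181 CPM in medium, 4291 CPM in 4OHT, 3330 CPM in 4OHT+Fer1, 3196 CPM in Fer1 and 2057 CPM in ctrl. Fcgr1, the gene of an Fc receptor of macrophages, was at a mean of 761 CPM in medium and at 295 to 377 CPM in the supernatant groups. The other macrophage markers did not all follow Fcgr1. Adgre1 (1075 CPM) and Cd68 (850 CPM) also had their highest mean in medium. Lyz2 was at a mean of 26304.5 CPM in 4OHT and 23109.9 CPM in medium, and Mertk at 159 and 152 CPM. Itgam had its lowest mean in medium, at 556 CPM against 621 to 750 CPM in the supernatant groups. The part of these differences in the level of Irak2 was not tested, and in bulk RNA fewer cells of a type and less RNA per cell cannot be told apart.

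**Figure D2:**
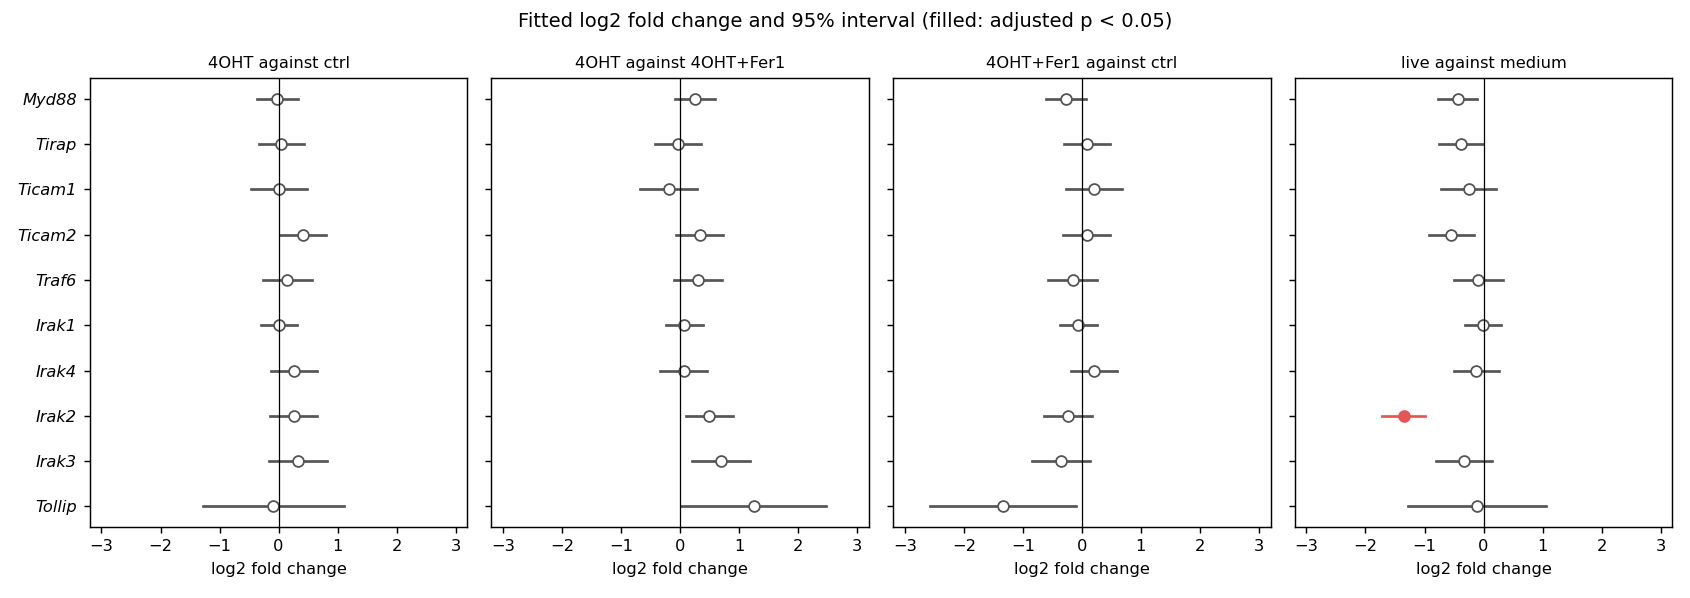
Fitted log2 fold changes (points) and 95% intervals (lines) of the 10 genes in 4 comparisons, 4OHT against ctrl, 4OHT against 4OHT+Fer1, 4OHT+Fer1 against ctrl, and live supernatants against medium. The filled red point, Irak2 at -1.35 in live against medium, is the value with an adjusted p under 0.05, and the intervals of Tollip are the widest.

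The promoters of 3 members are shown because they belong to the gene that differed (Irak2), to the IRAK with the smallest range (Irak1) and to the shared adapter (Myd88). They are RefSeq promoters on GRCm38.p6, 250 bases before to 50 bases after the annotated start, printed 5′ to 3′ on the gene's strand. RefSeq lists 12 promoters for 9 of the 10 members, and the first listed of each gene is printed. The Myd88 window lies inside the span of the gene given below, which has 3 annotated transcripts. Capitals mark matches on either strand to 3 motifs: the ETS core GGAAGT (held by 23.8% of the 32851 listed promoters), the interferon-stimulated response element core GAAANNGAAA (3.44%) and the NF-kB motif (8.46%).
Irak2 promoter, chr6:113638217-113638516, plus strand: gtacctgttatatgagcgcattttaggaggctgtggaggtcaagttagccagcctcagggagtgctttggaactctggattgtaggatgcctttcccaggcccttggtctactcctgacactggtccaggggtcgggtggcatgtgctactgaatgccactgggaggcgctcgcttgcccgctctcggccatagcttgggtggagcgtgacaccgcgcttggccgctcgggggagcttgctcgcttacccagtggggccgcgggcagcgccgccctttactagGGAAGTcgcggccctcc
Irak1 promoter, chrX:74023872-74024171, minus strand: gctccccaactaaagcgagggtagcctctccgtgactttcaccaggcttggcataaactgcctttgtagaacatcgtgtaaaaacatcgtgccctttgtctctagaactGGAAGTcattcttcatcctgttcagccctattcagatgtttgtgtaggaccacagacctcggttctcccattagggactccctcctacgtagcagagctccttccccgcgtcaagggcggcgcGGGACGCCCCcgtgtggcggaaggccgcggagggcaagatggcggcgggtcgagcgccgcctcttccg
Myd88 promoter, chr9:119339969-119340268, minus strand: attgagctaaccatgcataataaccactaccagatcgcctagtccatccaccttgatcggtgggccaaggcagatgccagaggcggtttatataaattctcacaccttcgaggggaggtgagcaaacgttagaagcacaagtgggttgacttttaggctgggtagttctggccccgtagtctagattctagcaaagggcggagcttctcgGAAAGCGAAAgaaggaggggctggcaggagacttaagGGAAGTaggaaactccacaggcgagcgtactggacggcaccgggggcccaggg
In the Irak2 window the capitals are 1 ETS core at bases 284 to 289, and no match to the other 2 motifs was found in these letters. The Irak1 window holds an ETS core at bases 110 to 115 and an NF-kB match at bases 233 to 242, which reads on both strands. The Myd88 window holds the interferon element core at bases 211 to 220 and an ETS core at bases 248 to 253. A match is a description of the letters and no evidence of binding.

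The Irak2 gene lies at chr6:113638467-113695026 on the plus strand (GRCm38), with 9 annotated transcripts and 8 distinct 3′ ends, whose tags are summed in the gene count. An exon of the predicted gene Gm43963 on the other strand overlaps 196 bases of its exons. Whether the counting used strand is not given in the sources used here, so reads in such stretches cannot be assigned with certainty.

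The makeup of the IRAK family's counts was unlike in medium and after supernatants. Of the counts of the 4 IRAK genes, Irak2 took 37.5% and 25.7% in the medium libraries. Its mean share was 17.7% ± 3.57 in ctrl, 16.5% ± 1.01 in Fer1, 15.4% ± 3.28 in 4OHT+Fer1 and 18.8% ± 4.04 in 4OHT (SD, n = 3). Both medium shares were above those of the 12 supernatant libraries, of which the highest was 23.2%. The summed CPM of the 4 genes averaged 239 ± 29.2 in ctrl, 251 ± 32.5 in Fer1, 234 ± 20.7 in 4OHT+Fer1 and 269 ± 13.4 in 4OHT (SD, n = 3), and was 288 and 312 in the medium libraries. Irak1 took 44.6% of the counts in ctrl on average, and 29.8% and 40.2% in the medium libraries. Its CPM averaged 107 in ctrl and 104 in medium. A higher share of Irak2 lowers the other shares, so the shares are no separate result from the Irak2 levels. The shares carry no test here.

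**Figure D3:**
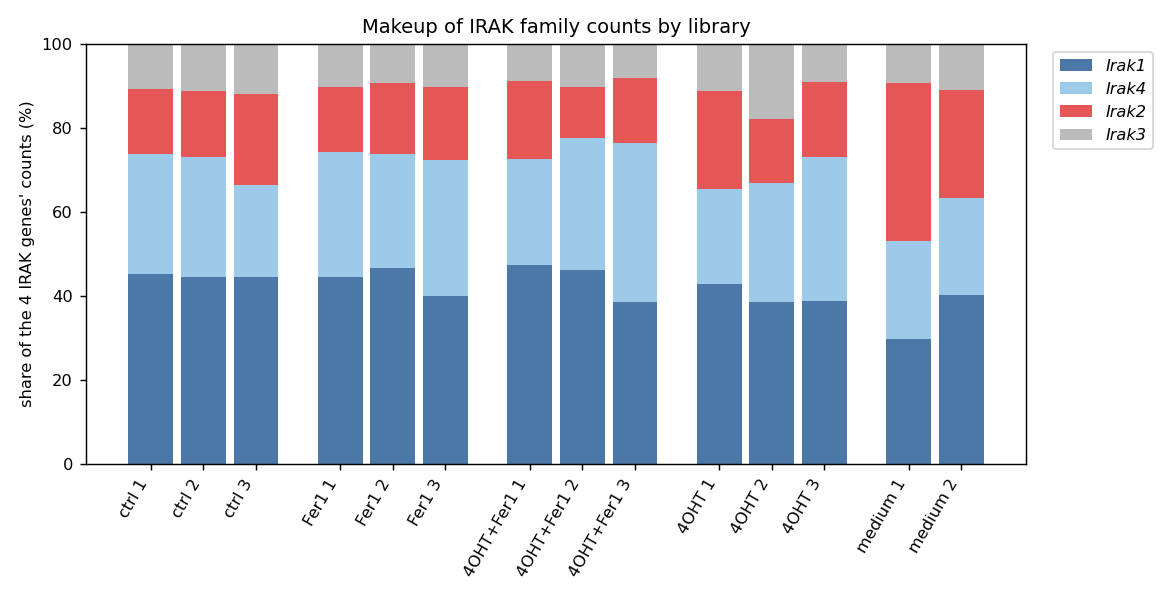
Share of each IRAK gene among the counts of the 4 IRAK genes in each library, as stacked bars from 0 to 100%. Irak2 (red) takes 25.7% and 37.5% in the medium libraries and at most 23.2% in the 12 supernatant libraries.

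Irak1 encodes the kinase that IRAK4 activates and that then recruits TRAF6 (chrX:74013914-74023918, minus strand, GRCm38). It was at 108, 93.2 and 119 CPM in ctrl, 114, 98.6 and 110.0 CPM in 4OHT, and 92.7 and 116 CPM in medium. All groups overlapped. Live against medium gave a log2 fold change of -0.01 (95% interval -0.31 to 0.30).

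Irak4 encodes the kinase that starts the Myddosome cascade (chr15:94543643-94581815, plus strand, GRCm38). It was at 68.5, 60.5 and 58.9 CPM in ctrl, 75.3, 59.4 and 92.2 CPM in Fer1, 58.2, 67.8 and 97.2 CPM in 4OHT+Fer1, and 61.0, 73.0 and 97.1 CPM in 4OHT. The highest library of each of the last 3 groups was replicate 3. Its medium values of 72.8 and 67.0 CPM lay within the range of the supernatant groups.

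The 4 adapters were, in their mean level, higher in medium than in every supernatant group. Myd88, the adapter used by every TLR but TLR3 (chr9:119335934-119341411, minus strand, GRCm38), was at 185 and 137 CPM in medium, 135, 109 and 112 CPM in ctrl and 156, 121 and 81.3 CPM in 4OHT. The medium libraries overlapped those of 4OHT but not those of the live groups, whose highest value was 135 CPM. Live against medium gave -0.44 (SE 0.15, edgeR quasi-likelihood adjusted p = 0.0775), which does not pass the threshold.

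Tirap, whose product bridges MyD88 to TLR2 and TLR4 (chr9:35184551-35200291, minus strand, GRCm38), was at 39.2 and 39.9 CPM in medium. It ran from 23.7 to 37.2 CPM over the 12 supernatant libraries, so medium did not overlap them. Live against medium gave -0.38 (SE 0.17, edgeR quasi-likelihood adjusted p = 0.173). The exons of Tirap overlap those of Srpr and of the antisense gene Gm39318 on the other strand, and its estimated counts were not whole numbers.

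Ticam1, the gene of TRIF (chr17:56269319-56276786, minus strand, GRCm38), was at 21.1 and 22.7 CPM in medium, 19.9, 18.9 and 10.9 CPM in ctrl and 16.1, 16.9 and 15.9 CPM in 4OHT. Live against medium gave -0.25 (95% interval -0.71 to 0.21). Ticam2, the gene of TRAM (chr18:46557291-46574533, minus strand, GRCm38), was at 34.2 and 31.7 CPM in medium and at 29.8, 35.1 and 28.9 CPM in 4OHT. It was at 20.8, 24.0 and 26.7 CPM in ctrl, and its live supernatant libraries reached 32.7 CPM. Live against medium gave -0.54 (SE 0.18, edgeR quasi-likelihood adjusted p = 0.0579), which does not pass the threshold. Ticam2 shares 838 bases of exon with Tmed7 on the same strand, so its counts are uncertain where the counting could split such reads.

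In live against medium, 4 of the 10 members had an unadjusted p under 0.05 (Irak2, Ticam2, Myd88 and Tirap), as had 27.7% of all genes tested, and 3 did not overlap between the groups (Irak2, Myd88 and Tirap), as did 18.4% of all genes. All 10 fitted log2 fold changes were below 0, the nearest to 0 being Irak1 at -0.01, while 48.7% of all genes were above 0. The median was -0.29, against -0.02 over all genes. DESeq2 called 2 members, Irak2 and Ticam2 (adjusted p = 0.0449), and 17.2% of all genes.

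Ferroptotic supernatant was next compared with ctrl supernatant, the main comparison of the study. No member was called, against 1.49% of all tested genes (edgeR's quasi-likelihood test, adjusted p from 0.434 to 0.996), and DESeq2 called 0 of the 10 and 3.25% of all genes. At an unadjusted p under 0.05 there was 1 member, Ticam2, against 10.8% of all genes. Ticam2 had a log2 fold change of 0.41 (95% interval 0.02 to 0.81, adjusted p = 0.434 with edgeR). Its 4OHT libraries did not overlap ctrl, a pattern that 11.1% of all genes showed. The other values were 0.33 for Irak3, 0.26 for Irak4, 0.26 for Irak2, 0.14 for Traf6, 0.05 for Tirap, 0.01 for Irak1, 0.01 for Ticam1, -0.02 for Myd88 and -0.09 for Tollip. For Irak1 the 95% interval was -0.30 to 0.32, and for Myd88 it was -0.36 to 0.32. For Tollip it was wide, at -1.29 to 1.11.

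Against 4OHT+Fer1, where ferrostatin-1 was present with the same GPX4 deletion, ferroptotic supernatant gave again 0 of 10 members called, with 1.35% of all genes called (edgeR's quasi-likelihood test), and 0 with DESeq2, which called 3.1% of all genes. At an unadjusted p under 0.05 there were 3 members, Irak3, Irak2 and Tollip, against 11.8% of all genes.

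Irak3 encodes IRAK-M, the kinase-dead IRAK that dampens TLR signals (chr10:120141648-120202130, minus strand, GRCm38). It was at 30.003, 45.7 and 25.8 CPM in 4OHT and at 20.3, 22.3 and 20.7 CPM in 4OHT+Fer1. The groups did not overlap, as in 10.2% of all genes. The log2 fold change was 0.68 (SE 0.23, 95% interval 0.19 to 1.17), and the edgeR quasi-likelihood adjusted p was 0.217. In ctrl it was at 25.7, 23.3 and 31.9 CPM, in Fer1 at 26.3, 20.2 and 28.8 CPM and in medium at 29.2 and 31.5 CPM, so the 4OHT values overlapped ctrl and medium, and the highest value was that of replicate 2. Its exons overlap 192 bases of Tmbim4 on the other strand.

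Irak2 was higher in 4OHT than in 4OHT+Fer1 in 3 of 3 replicate numbers, with ratios of 1.44, 1.51 and 1.26, although the 2 groups overlapped. The log2 fold change was 0.49 (SE 0.18, edgeR quasi-likelihood adjusted p = 0.294). Against all live supernatants it was 0.34 (SE 0.15, edgeR quasi-likelihood adjusted p = 0.323). The 4OHT+Fer1 group had the lowest mean of Irak2, at 36.3 CPM. Within replicate numbers, the ratios of 4OHT to ctrl were 1.68, 1.19 and 0.865. The share of all genes that were higher in 3 of 3 replicate numbers was not counted.

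Tollip encodes a protein that binds IRAK1 and limits its activity (chr7:141874813-141918507, minus strand, GRCm38), and its spread within groups was wide. It was at 10.8, 22.4 and 26.0 CPM in ctrl, 20.6, 18.1 and 12.9 CPM in Fer1, and 15.4, 4.03 and 6.34 CPM in 4OHT+Fer1. It was at 23.8, 33.8 and 5.69 CPM in 4OHT and at 18.9 and 16.6 CPM in medium. The lowest 4 libraries were replicate 2 and 3 of 4OHT+Fer1, replicate 3 of 4OHT and replicate 1 of ctrl. The 4OHT+Fer1 libraries lay below both medium libraries and overlapped the other groups. 4OHT against 4OHT+Fer1 gave 1.24 (SE 0.57), and 4OHT+Fer1 against ctrl gave -1.33 (SE 0.57). The edgeR quasi-likelihood adjusted p was 0.421 and 0.948, respectively. The within-replicate ratio of 4OHT to 4OHT+Fer1 was 1.55, 8.38 and 0.897, and without replicate 2 the log2 fold change was 0.39.

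Traf6, whose product links the IRAKs to TAK1 (chr2:101678429-101701669, plus strand, GRCm38), was at 19.4, 17.4 and 12.8 CPM in 4OHT, 16.6, 13.6 and 10.1 CPM in 4OHT+Fer1 and 13.8, 14.3 and 15.9 CPM in ctrl. In 4OHT it was above 4OHT+Fer1 in 3 of 3 replicate numbers (log2 fold change 0.30, 95% interval -0.11 to 0.72). The ratios of 4OHT to ctrl within replicate numbers were 1.41, 1.22 and 0.804.

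Against the 3 kinds of live supernatant as 1 group, ferroptotic supernatant gave 0 of 10 members called with edgeR's quasi-likelihood test, against 2.95% of all genes, and 0 with DESeq2, against 5.39%. Irak3 (0.48), Ticam2 (0.37) and Irak2 (0.34) had an unadjusted p under 0.05, against 13.8% of all genes, with edgeR quasi-likelihood adjusted p-values of 0.232, 0.260 and 0.323. Leaving out 1 replicate number at a time moved them to between 0.14 and 0.72 for Irak3, 0.23 and 0.57 for Ticam2, and 0.19 and 0.48 for Irak2. The lowest values were those without replicate 2 for Irak3 and Ticam2 and without replicate 1 for Irak2. The median of the 10 members was 0.17 against 0.01 over all genes.

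The remaining comparisons asked what ferrostatin-1 and 4OHT did without ferroptosis. In 4OHT+Fer1 against ctrl, 0 of 10 members were called and 0.0311% of all genes, with 1 member (Tollip) and 4.31% of all genes at an unadjusted p under 0.05. Irak3 was lower in every 4OHT+Fer1 library than in ctrl (log2 fold change -0.36, SE 0.23), a separation that 5.35% of all genes showed. In Fer1 against ctrl, 0 members and 0% of all genes were called, and 0 members and 1.14% of genes had an unadjusted p under 0.05. The largest positive value was 0.24 for Irak4. In 4OHT+Fer1 against Fer1, 0 members and 0.0233% of genes were called, and 0 members and 2.07% of genes had an unadjusted p under 0.05. DESeq2 called 0 members in each of these 3 comparisons, and 0.14%, 0.0233% and 0.0856% of all genes in turn.

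Whether the response to 4OHT differed with ferrostatin-1 was tested as an interaction, the log2 fold change of 4OHT against ctrl minus that of 4OHT+Fer1 against Fer1. No member passed edgeR's quasi-likelihood test, against 0.0311% of all genes, or DESeq2, against 0.672%, and 0 members had an unadjusted p under 0.05, against 6.2% of all genes. The estimates were 0.93 for Tollip (SE 0.78), 0.58 for Irak3 (SE 0.32) and 0.47 for Irak2 (SE 0.26), with edgeR quasi-likelihood adjusted p-values of 0.978, 0.919 and 0.927. Leaving out 1 replicate number at a time moved them to between 0.0775 and 1.802 for Tollip, 0.41 and 0.77 for Irak3, and 0.36 and 0.68 for Irak2, each lowest without replicate 2 and highest without replicate 3.

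The replicate number accounted for more of the spread of some members than the supernatant did. A difference among replicate numbers passed for 2 of 10 members, Myd88 (edgeR quasi-likelihood adjusted p = 0.0331) and Irak2 (0.0490), and for 10.2% of all genes. The mean of Myd88 over the 4 supernatant libraries of a replicate number was 137, 105 and 94.0 CPM, and that of Irak2 was 45.2, 33.8 and 49.5 CPM. Of the variance of log2 CPM over the 12 supernatant libraries, replicate number took 63.9% and group 13.2% for Myd88, and 48.7% and 26.4% for Irak2. For Irak3 these shares were 0.776% and 50.4%, and the medians over all tested genes were 26.6% and 19.2%.

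Genes around the members were described from 5 further lists of the pathway, compared between live supernatants and medium, where Irak2 was called. Over all tested genes, 14.7% were called in this comparison in either direction. Of 18 tested TIR receptors and co-receptors 4 were lower after live supernatants and 0 higher. These included Ly86 (log2 fold change -1.30), encoding MD-1, the partner of the receptor RP105, and the receptors Tlr3 (-0.81) and Tlr1 (-0.75). Another was Unc93b1 (-0.94), which carries TLRs to endosomes. Of 24 kinases, ubiquitin ligases and transcription factors downstream of the adapters 6 were lower, among them Irf5 (-1.59), Irf7 (-1.32), Ikbke (-1.04) and Map3k8 (-1.01).

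Of 18 other negative regulators 8 were lower, among them Socs1 (-1.95), Dusp1 (-1.65), Tnip3 (-1.35) and Pik3ap1 (-1.16), and 0 were higher. Of 11 tested MyD88 and NF-kB target genes 6 were lower, with Il1b at -3.75 and Tnf at -1.72, and of 11 TRIF and interferon target genes 9 were lower, with Cxcl10 at -2.36 and Rsad2 at -2.00, beside the 14.7% called over all genes. The medians of these 5 lists ran from -0.24 for the kinases to -1.60 for the interferon targets, beside -0.29 for the 10 members and -0.02 over all genes. Rsad2, encoding the antiviral protein viperin, was at a mean of 2101 CPM in medium and at 378 to 421 CPM in the 4 supernatant groups. The calls use edgeR's quasi-likelihood test at an adjusted p under 0.05. The lists were chosen with earlier results of these data known, and all these calls share the same medium libraries. The counts of calls are therefore a description and no test of the lists.

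In 4OHT against live supernatants, 2.95% of all genes were called, and the same lists held 2 calls among the 11 MyD88 and NF-kB targets and 1 among the 18 negative regulators. Il1b (log2 fold change 3.10, SE 0.28), the gene of the cytokine IL-1 beta, and Marcksl1 (0.69, SE 0.14) were the targets called higher. Their means in 4OHT were 40.5 and 52.8 CPM, beside 44.9 and 67.8 CPM in medium. Zc3h12a (0.77, SE 0.19), encoding the RNA-degrading regnase-1, was the negative regulator called higher. It averaged 21.8 CPM in 4OHT and 21.8 CPM in medium. None of the 18 receptors, 24 kinases and 11 interferon targets was called in 4OHT against live supernatants by edgeR's quasi-likelihood test. Against medium, with 4.26% of all genes called, 4OHT gave 0 calls among the 11 MyD88 and NF-kB targets (median log2 fold change -0.42). Among the 11 interferon targets 8 were called lower in 4OHT than in medium (median -1.83). So were 3 of 24 kinases, 3 of 18 negative regulators and 2 of 18 receptors, and 0 genes of these lists were called higher.

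**Figure D4:**
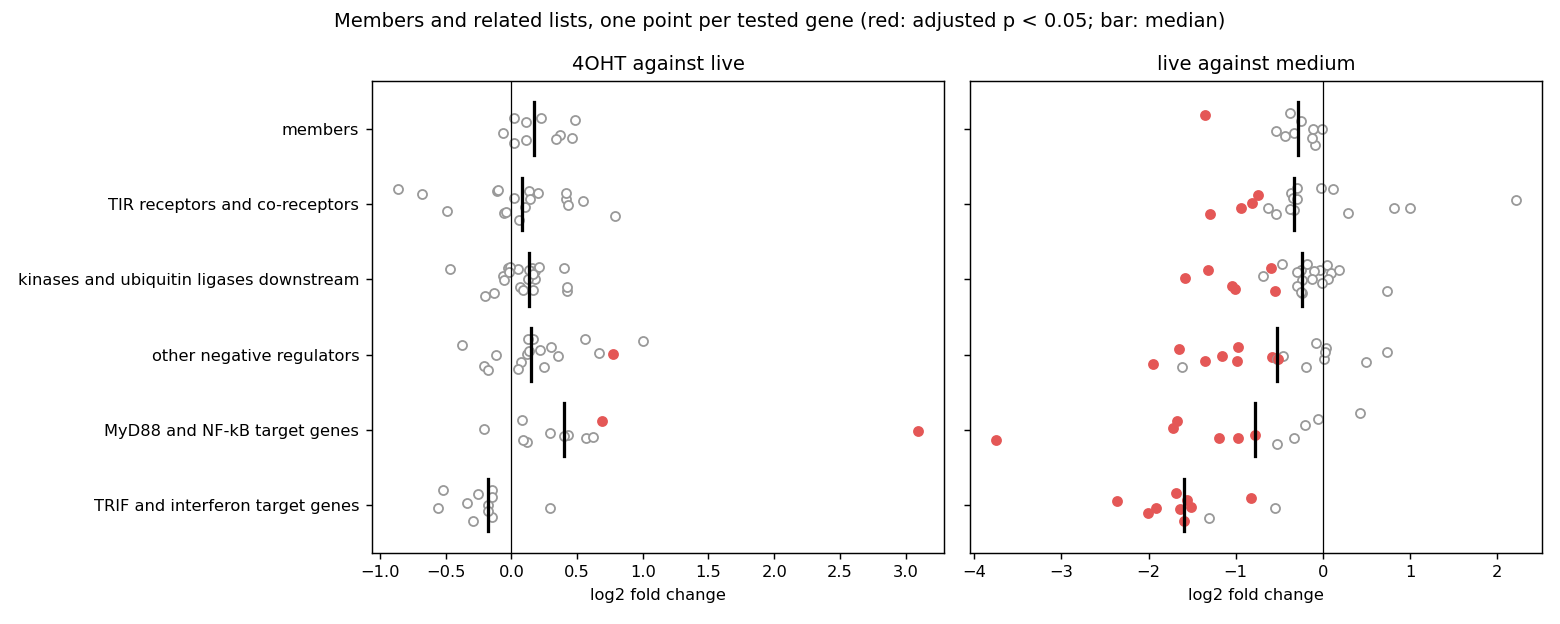
Log2 fold change of each tested gene of the 10 members and the 5 related lists, for ferroptotic against live supernatants (left) and live supernatants against medium (right). Points are genes, red where the adjusted p was under 0.05, and black bars are list medians. In the right panel the interferon targets centre on -1.60 and the members on -0.29, with Irak2 the red point among the members.

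The genes whose pattern over the 14 libraries was most like that of Irak2, by Pearson's r of log2 CPM among 11275 genes, were Dpep2 (0.941), Plekhg1 (0.932) and Klf13 (0.926). Dpep2 averaged 868 CPM in medium and 411 to 508 CPM in the supernatant groups, and Plekhg1 averaged 32.7 CPM in medium and 7.68 to 14.3 CPM in the supernatant groups. These correlations share the libraries and their groups and are given as a description. Among the members, Myd88 and Traf6 had the highest correlation (0.756), and Irak4 and Traf6 the lowest (-0.71). With group means removed these were 0.793 and -0.898, so they did not rest on the group means alone. Differences between replicate numbers were not removed. Of the variance over the supernatant libraries, replicate number took 63.9% for Myd88, 41.2% for Traf6 and 42.5% for Irak4. The part of the replicate number in these correlations was not tested.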

How the data were processed

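RNA of pBMDMs was sequenced with a 3′ tag kit, in which 1 tag is read per transcript. The authors aligned reads with STAR 2.7.10a, quantified genes with Salmon 1.5.2 and deposited estimated counts for each gene that are not normalized. The submitters' notes name both GRCh38 and GRCm38, and the paper a human genome, while the gene identifiers in the table are from mouse. Coordinates here are from a GRCm38 annotation. The authors' own comparison columns (fold changes and p-values) and 14 further columns of per-sample values were not used.

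Of the 14 libraries, estimated counts were rounded to whole numbers, a step not in the planned design, and genes passing a minimum count of 10 were kept. Tests used edgeR 4.0.16 in R 4.3.3 (quasi-likelihood, TMM scaling, Benjamini-Hochberg over all tested genes, threshold 0.05), fitted on all libraries with group and replicate number as terms. The study's model has mouse ID as a term, for which the replicate number stands here. Log2 CPM deviations from group means correlated at a median of 0.247 (lowest 0.0022) for 26 same-numbered pairs, and -0.139 for 52 other pairs. DESeq2 1.42.0, other scalings, filters and sample sets were alternatives. The paper describes the replicates of its heatmap as biological and independent. The labels do not say which mouse each replicate number stands for, so p-values measure the spread between these samples. Intervals are 95%. The fitting was tested on simulated data.

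All 10 members are named, other pathway genes only where called (the text gives examples and the count), and the 3 genes most like a called member. The members and lists were chosen with earlier results of these data known.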

Additional observations from a re-analysis of the deposited data

How the results depend on the processing

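Of 666 recomputed values, 618 counted as unchanged. For a log2 fold change this means the same direction and side of the threshold. For a number of members called it means the same number, which in many comparisons stayed at 0. For an IRAK share it means a shift smaller than its SD. The alternative for the shares added a count of 1, which could hardly move genes with this many counts, and all 20 shares were unchanged. Irak2 in live against medium was lower and called in each of its 10 alternatives (-1.46 to -1.19, edgeR or DESeq2 adjusted p from 5.84e-10 to 0.0488). Without the replicate block, the tests of any difference among the 5 groups and of 4OHT against medium called 0 members (Irak2 in 4OHT against medium -0.91, edgeR adjusted p = 0.211), and Myd88 (0.0145), Ticam1 (-0.0232) and Tollip (0.103) in 4OHT against ctrl and Irak1 (0.0226) and Irak4 (0.0147) in live against medium changed sign. Upper-quartile scaling turned Irak1 in live against medium (0.00622). With no filter, Ticam1 (-0.00743) and Irak1 (-9.52e-04) in 4OHT against ctrl and Irak1 in live against medium (0.0265) turned. Members called in live against medium numbered 2 with a minimum count of 30 or with DESeq2, and 3 with only the groups compared. The replicate-number test called 1 with RLE scaling or no filter. The cause of these changes was not tested.

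Leaving out 1 replicate number gave 0 to 1 members called in ctrl against medium, 4OHT against medium and the 5-group test, 1 to 3 in live against medium (3 without replicate 3: Irak2, Myd88 and Ticam2) and 0 to 0 in the replicate-number test. In 4OHT against ctrl the log2 fold changes then ran from -0.0211 to 0.0704 for Irak1, -0.0196 to 0.38 for Traf6, -0.0299 to 0.61 for Irak3, -0.14 to 0.17 for Myd88, -0.24 to 0.16 for Ticam1, -0.0519 to 0.13 for Tirap and -0.62 to 0.77 for Tollip. They ran from -0.17 to 0.13 for Tirap in 4OHT against 4OHT+Fer1, and from -0.24 to 0.27 for Irak1 and -0.29 to 0.0284 for Tollip in live against medium. A log2 fold change limit of 1, which can only remove calls, kept every call. With 2 medium libraries, leaving out either leaves 1, which is assumed to vary like the other groups.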
